A study of Mus musculus with 8 samples.

Results

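The doxorubicin response of mouse embryonic fibroblasts that carry lox sites at Dino on both alleles (Dino lox/lox, called mutant here as in the labels) was measured by RNA sequencing. It rests on 4 of the 8 libraries of the series, and every gene row of the count table was used. Of these 4, 2 libraries came from mutant cells given vehicle and 2 from mutant cells given doxorubicin at 0.2 µg/mL for 8 h, and each pair carries the letters A and B. The other 4 libraries came from Dino +/+ fibroblasts (WT) under the same vehicle and doxorubicin conditions. They entered the statistical model, which estimates the spread between libraries from all 8, and served for the comparison of the responses at the end. The fibroblasts were early-passage cultures from embryos at E13.5 in medium with serum, and 300000 cells were treated. The labels list the controls as untreated in one place and as given vehicle in another. The sources used here state neither how many embryos stand behind a library nor whether libraries A and B were separate cultures, so the p-values measure the spread between these libraries, which may be technical. What the lox sites change in the Dino RNA is not given in the sources used here either, and the level of Dino itself was not analysed.

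Doxorubicin traps topoisomerase II on DNA and causes double-strand breaks, which activate the kinase ATM. ATM and its partner kinases stabilize the transcription factor p53, which then raises the transcription of genes for cell cycle arrest, apoptosis, DNA repair and its own degradation. In fibroblasts this response is best known for arrest through p21, the product of Cdkn1a, which leads to repression of cell cycle genes by pocket proteins and the DREAM complex. Dino is transcribed into a long noncoding RNA next to Cdkn1a and is itself a p53 target.

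Gene counts summed to between 25482805 and 30371446 in the 4 mutant libraries. The table lists 30419 genes, and 12255 of them passed the filter on low counts. A count of 0 in 1 mutant library allows up to 3 counts, or 0.102 to 0.120 CPM (counts scaled to a common library size with TMM factors), and this covers counting error only. Libraries A and B differed by more than sampling noise, with 5.90 (vehicle) and 5.71 (doxorubicin) times the chi-square that noise alone gives, so the pairs were not copies of 1 library. In WT the pairs stood at 6.51 (vehicle) and 18.8 (doxorubicin) times, so the doxorubicin libraries of WT differ from each other more than those of any other group. Xist, the RNA that silences 1 X chromosome in female cells, stood at 254 and 212 CPM with vehicle and 575 and 469 CPM with doxorubicin, and at 0.232 to 0.376 CPM in the WT libraries. The Y-linked Ddx3y stood at 74.00 and 73.99 CPM with vehicle and 58.7 and 60.6 CPM with doxorubicin in the mutant and at 448 to 580 CPM in the WT libraries. Both sexes' marker genes were thus present in every mutant library, and within the mutant libraries Xist rose (log2 fold change, doxorubicin over vehicle, with its standard error after ± here and below, 1.16 ± 0.09) while Ddx3y fell (-0.31 ± 0.08). Kdm5d fell too (-0.48 ± 0.12), with no call without doxorubicin library A (-0.34). The Y-linked Eif2s3y (0.06 ± 0.11) and Uty (-0.17 ± 0.15) did not pass the test. Of the 432 tested genes on chromosome X, 28.0% rose and 26.9% fell, against 28.2% and 26.4% on the autosomes. The labels give no batch, date or embryo for any library.

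The labelled cell type was checked against markers. All 12 fibroblast markers were tested, and their summed level was 6803 and 6651 CPM with vehicle and 5851 and 5677 CPM with doxorubicin. Pdgfra, Pdgfrb, Prrx1, Col3a1 and Vim fell, Dcn rose and 6 did not pass, and the number that rose was 2 without vehicle library A and 3 without doxorubicin library B. Vim lost its call without vehicle library B or doxorubicin library B (-0.21 in both cases). Lists of markers of other cells were counted in the same way. Of 18 macrophage and leukocyte markers 13 were tested, summing to 47.4 to 61.4 CPM over the 4 libraries, and only Cd14 was called (higher), with 3 called without doxorubicin library B. Of 10 endothelial markers 3 were tested, at 1.34 and 1.73 CPM with vehicle and 5.64 and 5.85 CPM with doxorubicin, and only Tek was called (higher), while Pecam1 had 0 or 1 read in each library and Tie1 and Cldn5 had 0 in all. Of 11 epithelial markers 2 were tested, at 1.54 to 4.15 CPM, with Krt19 higher, and Epcam had 1 to 4 reads. The globin genes had 0 reads in the mutant libraries. Of 13 skeletal muscle markers 3 were tested, at 5.35 and 4.07 CPM with vehicle and 4.24 and 4.39 CPM with doxorubicin. Genes of this list were called in both directions, while Myod1 and Ckm had 0 reads. Some genes of the other lists had many reads. The 6 tested of 13 cartilage and bone markers summed to 247 and 254 CPM with vehicle and to 244 CPM in both doxorubicin libraries, most of it from Sox9 with 4608 to 5011 reads and Runx2 with 872 to 2339, while Ibsp and Alpl had 0 reads. The 4 tested of 8 adipocyte markers summed to 81.5 and 78.6 CPM with vehicle and to 93.1 and 102 CPM with doxorubicin, most of it from Lpl with 1967 to 2199 reads, while Plin1 had 0. The 9 tested of 12 neural markers summed to 71.0 to 77.2 CPM, with Map2 at 569 to 1284 reads. Sox9 (0.26 ± 0.08) and Lpl (0.25 ± 0.08) rose, Sox9 with no call without vehicle library A (0.20) and Lpl with none without vehicle library B (0.21) or doxorubicin library B (0.17), and Runx2 (-1.06 ± 0.09) and Map2 (-0.88 ± 0.09) fell. The part of such cells in the results below was not tested.

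The first question was which genes mutant fibroblasts raise and lower when their DNA is damaged. With doxorubicin 3469 genes rose (28.3% of those tested) and 3177 fell (25.9%), and 5609 did not pass, where a call is an adjusted p under 0.05 in edgeR's quasi-likelihood test with Benjamini-Hochberg adjustment over all 12255 genes. Rises were larger than falls: 1564 genes rose at least 2-fold (12.8%) against 797 that fell at least 2-fold (6.5%), and 650 against 85 changed at least 4-fold. The median log2 fold change of all genes was 0.01. Gene lists are described below by their tested members, set against these shares. A gene that is silent with vehicle can be tested only through the treated libraries, and 71 of the genes that rose had no read in either vehicle library, while 1 gene that fell had none in either treated library. Cnga3, a cyclic nucleotide channel gene, had 0 and 0 reads with vehicle and 122 and 129 reads with doxorubicin, at least 48.8-fold higher against a floor of 3 reads in each vehicle library, and Neurod1, a neurogenic transcription factor gene, had 0 and 0 reads with vehicle and 94 and 122 reads with doxorubicin, at least 41.95-fold higher. Medians of lists that hold such genes were the same to 2 decimals with these genes set to their bound. Values in CPM are those of libraries A and B, with n = 2 libraries in each group.

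**Figure D1:**
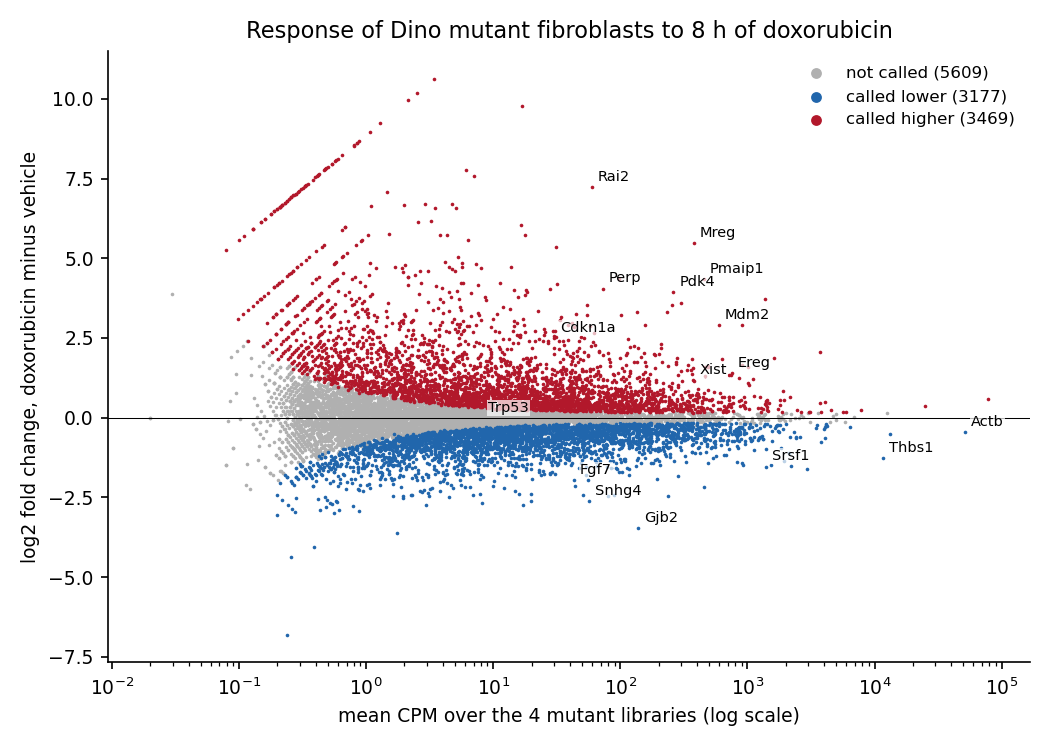
Each point is 1 of 12255 tested genes, with the mean CPM over the 4 mutant libraries on a log axis and the log2 fold change (doxorubicin minus vehicle) on the vertical axis, coloured by call. The 3469 genes called higher reach farther from 0 than the 3177 called lower, and the straight streaks at the upper left are genes with 0 to a few reads in the vehicle libraries.

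Among genes at a mean of at least 20 CPM, the largest rise was that of Rai2, a transcriptional coregulator gene, from 1.06 and 0.508 CPM to 105 and 132 CPM. Both treated libraries lay far above both vehicle libraries. Mreg, which encodes the melanosome transport protein melanoregulin, went from 16.4 and 16.8 CPM to 698 and 781 CPM, a 44.5-fold rise (5.48 ± 0.09). Fam196a rose from 1.89 and 1.05 CPM to 61.4 and 59.8 CPM. The next were Ddit4l, a brake on mTORC1 signaling (4.35 ± 0.09), Pmaip1, the BH3-only death gene (4.34 ± 0.08), Tmc7 (4.21 ± 0.13), Perp, a desmosome and apoptosis gene (4.05 ± 0.10), Prkaa2, which encodes a catalytic subunit of AMP-activated kinase (4.02 ± 0.11), and Pdk4, the kinase that turns off pyruvate dehydrogenase (3.93 ± 0.08). Pdk4 alone went from 31.3 and 32.9 CPM to 496 and 486 CPM, with no overlap between the groups. Trp53inp1 (3.73 ± 0.08), Fgfbp3 (3.61 ± 0.11), Zfp365 (3.53 ± 0.08), Nudt11 (3.52 ± 0.10), Fam212b (3.36 ± 0.11) and Fam122b (3.32 ± 0.10) completed the 15 largest.

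On the falling side Gjb2, the gene for the gap junction protein connexin 26, went from 264 and 242 CPM to 25.2 and 20.6 CPM, an 11.05-fold fall. Snhg4, a host of small nucleolar RNAs, fell from 95.9 and 97.4 CPM to 16.4 and 15.02 CPM. Both pairs were clearly apart. Chst2, a sulfotransferase gene (-2.47 ± 0.09), Fam84b (-2.45 ± 0.08), the YAP target Ankrd1 (-2.42 ± 0.10), Lurap1l (-2.42 ± 0.08), the protocadherin gene Pcdh18 (-2.16 ± 0.07) and Wrb, a receptor subunit for tail-anchored protein insertion (-2.15 ± 0.09), fell at least 4-fold. The rest of the 15 were the growth factor genes Fgf7 (-1.97 ± 0.09) and Fgf10 (-1.81 ± 0.13), the receptor gene Pdgfra (-1.81 ± 0.10), the linker histone gene H1f0 (-1.96 ± 0.09), Bend3 (-1.93 ± 0.11), the chondroitin synthase gene Chsy3 (-1.92 ± 0.09) and Snhg5 (-1.83 ± 0.07).

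**Figure D2:**
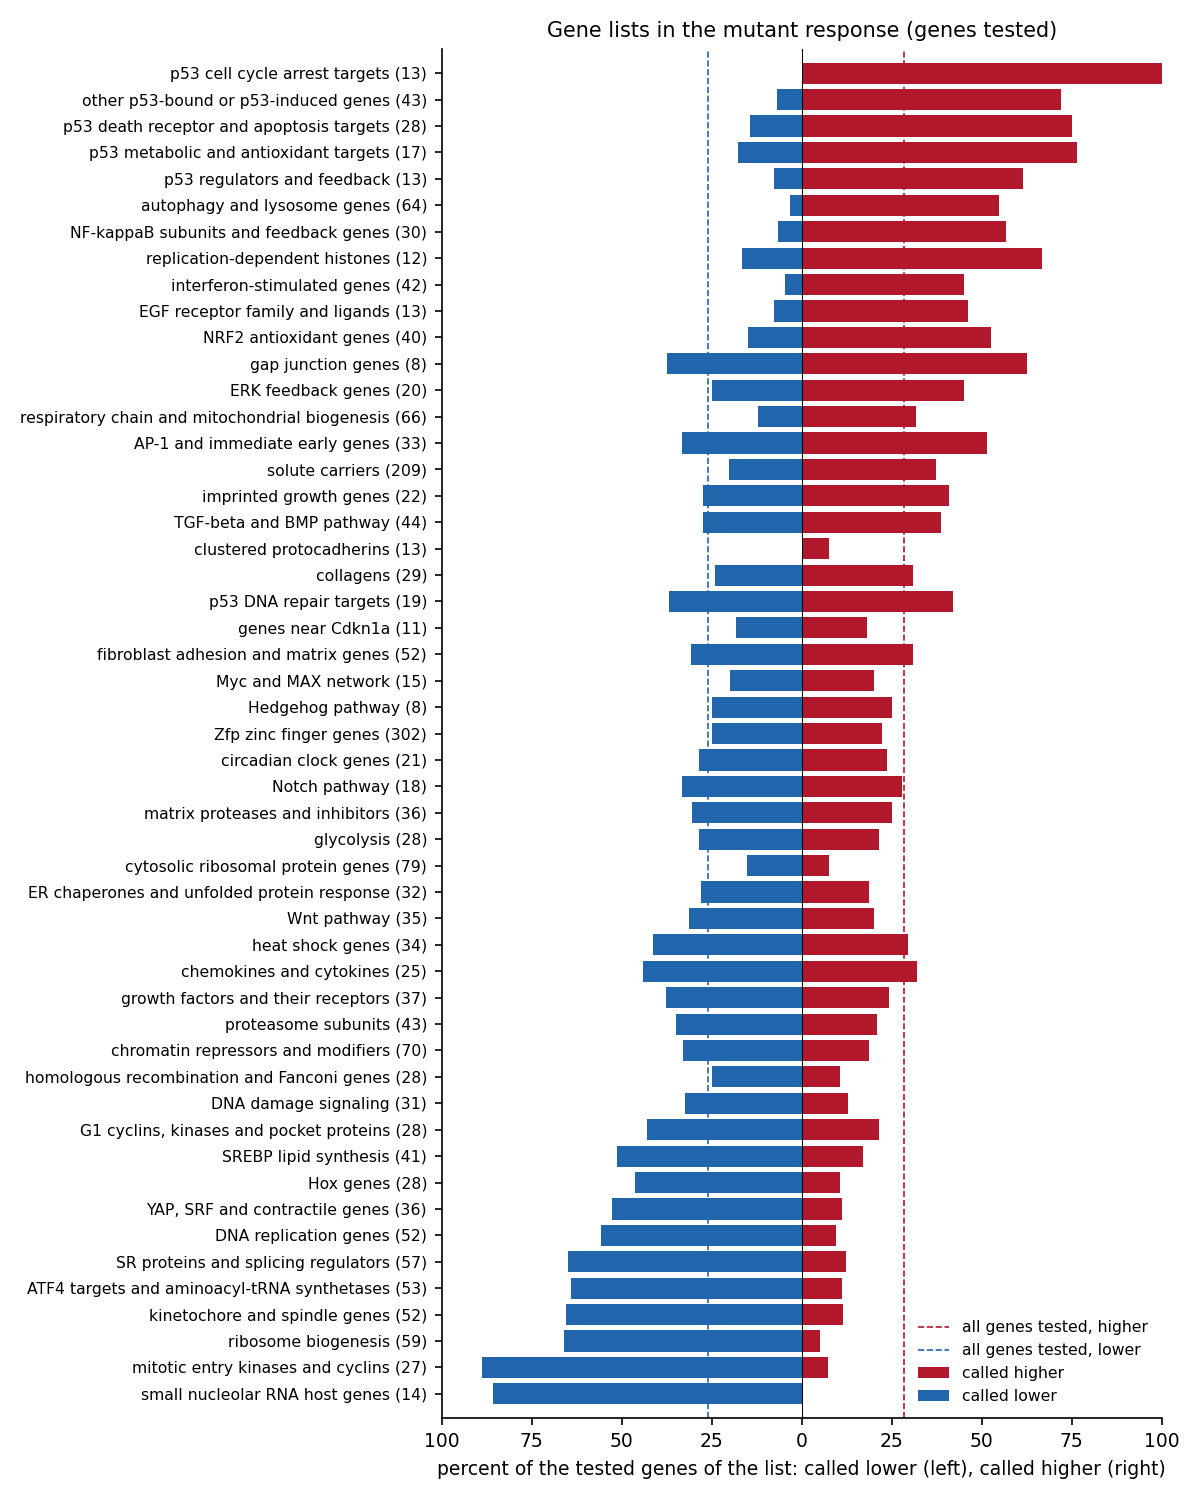
For each gene list with at least 8 tested genes (number in brackets) the bars give the percent called higher (right) and lower (left) in the mutant response, and dashed lines give the same for all genes tested, 28.3% and 25.9%. The p53 lists, apart from its DNA repair targets near the middle, and the autophagy and lysosome list are at the top, with more genes higher than lower, and the small nucleolar RNA hosts, mitotic entry and ribosome biogenesis lists at the bottom.

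The p53 pathway was described by the roles of its genes. Trp53 itself stood at 7.75 and 8.47 CPM with vehicle and 7.24 and 8.93 CPM with doxorubicin, and the libraries overlapped (0.00 ± 0.14, not past the test). Among its regulators and feedback genes, of 13 tested genes 8 rose, 1 fell and 4 did not pass the test, with a median log2 fold change of 1.10. Mdm2, the ubiquitin ligase that degrades p53, went from 144 and 135 CPM to 1066 and 1037 CPM, a 7.52-fold rise (2.91 ± 0.07). Ccng1, whose product recruits a phosphatase to Mdm2, rose from 1408 and 1460.0 CPM to 6035 and 6035 CPM. Ppm1d, the phosphatase that removes p53's activating marks (1.99 ± 0.09), Pml, the scaffold of the nuclear bodies (2.17 ± 0.11), and Trp53inp1 (3.73 ± 0.08) also rose, while the deubiquitinase gene Usp7 fell (-0.46 ± 0.08). Mdm4 (0.05 ± 0.16), the other main inhibitor of p53, Trim24 (0.00 ± 0.10) and Rfwd2 (-0.03 ± 0.09), both genes of ubiquitin ligases for p53, did not pass.

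The promoters of 4 known p53 targets that rose are shown because each holds a p53 half-site, a match to the 10-base consensus of which p53 binds a pair, searched on both strands (the consensus reads the same on each). The 250 bases before the gene start are given 5′ to 3′ in the direction of the gene, from RefSeq's annotation of GRCm38.p6, with the half-site in capitals, and the count data themselves were made on the older build mm9. Positions are chr10:117710759-117711008, minus strand for Mdm2, chr11:40755287-40755536, minus strand for Ccng1, chr7:45466899-45467148, minus strand for Bax and chr17:29090729-29090978, plus strand for Cdkn1a.
Mdm2: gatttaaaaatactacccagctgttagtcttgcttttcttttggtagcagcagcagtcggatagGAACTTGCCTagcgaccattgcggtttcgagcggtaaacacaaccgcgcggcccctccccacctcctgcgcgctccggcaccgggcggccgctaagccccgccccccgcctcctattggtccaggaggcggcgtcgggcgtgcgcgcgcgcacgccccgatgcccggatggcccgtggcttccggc
Ccng1: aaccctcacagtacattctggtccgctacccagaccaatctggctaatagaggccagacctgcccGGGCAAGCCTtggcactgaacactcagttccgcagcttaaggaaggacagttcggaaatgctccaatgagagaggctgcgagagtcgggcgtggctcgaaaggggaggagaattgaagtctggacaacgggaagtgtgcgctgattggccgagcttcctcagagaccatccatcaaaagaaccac
Bax: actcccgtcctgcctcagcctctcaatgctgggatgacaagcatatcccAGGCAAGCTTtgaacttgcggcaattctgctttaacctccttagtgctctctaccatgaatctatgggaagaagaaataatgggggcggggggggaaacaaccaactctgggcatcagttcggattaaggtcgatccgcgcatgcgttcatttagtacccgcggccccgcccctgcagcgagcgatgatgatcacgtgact
Cdkn1a: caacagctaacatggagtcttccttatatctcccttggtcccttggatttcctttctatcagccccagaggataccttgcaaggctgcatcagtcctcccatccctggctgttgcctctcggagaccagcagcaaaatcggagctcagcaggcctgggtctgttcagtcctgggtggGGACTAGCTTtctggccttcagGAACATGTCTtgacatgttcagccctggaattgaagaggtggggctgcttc

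A half-site was found in the promoter window (250 bases before to 50 after the start) of 8 of 12 matched regulator and feedback genes (66.7%) and of 5 of 23 matched death receptor and apoptosis genes (21.7%), against 8.36% of all 32851 promoters in the table and 6.97% of the 9511 matched to tested genes. Of other p53 lists the shares were lower: 2 of 14 DNA repair genes (14.3%), 5 of 35 further p53-bound or induced genes (14.3%) and 1 of 16 metabolic genes (6.25%). No share was taken for the cell cycle arrest list, which had too few matched promoters. Among all matched genes called higher 9.04% had a half-site, and among those called lower 5.50%. The matches were Trp53, Mdm2, Ppm1d, Ccng1, Rchy1, Trim24, Wrap53 and Pml in the first list, of which Trp53 and Trim24 did not pass the test, and Trp53 and Wrap53 are neighbours that start in opposite directions. A pair of half-sites with a gap of 0 or 1 base was in none of the 9511 windows matched to tested genes. Each member of a pair had to match the consensus at every base, and such pairs were in only 3 of all 32851 promoters. This search therefore cannot tell whether pairs with a mismatch are present. In the printed Cdkn1a window GAACATGTCT is followed directly by tgacatgttc, which was not counted because it departs from the consensus at its first base. A match is a run of letters and not evidence of binding.

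Genes for cell cycle arrest moved together. All 13 tested of the 14 listed rose, with a median of 2.47. Cdkn1a went from 8.61 and 9.35 CPM to 49.9 and 51.7 CPM (2.50 ± 0.10). Btg2, an antiproliferative gene that promotes mRNA decay, rose from 8.51 and 9.73 CPM to 68.9 and 67.8 CPM. The groups did not overlap for either gene. Zfp365, a gene linked to genome stability, went from 41.5 and 38.9 CPM to 453 and 476 CPM, and Tob1 (1.85 ± 0.07), Gtse1 (1.68 ± 0.12), Btg1 (1.36 ± 0.08) and the kinase gene Plk2 (0.81 ± 0.08) rose less.

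Genes of apoptosis rose for the most part: of 28 tested genes 21 rose, 4 fell and 3 did not pass the test, with a median log2 fold change of 1.43. Without vehicle library B 2 fell. Death receptor genes were among the largest, with Fas from 0.926 and 1.08 CPM to 25.8 and 27.3 CPM (26.3-fold), Eda2r from 208 and 211 CPM to 1542 and 1632 CPM, and Tnfrsf10b, the TRAIL receptor gene, from 38.9 and 41.3 CPM to 121 and 128 CPM. Every treated library was above every vehicle library for all 3 genes. Of the mitochondrial death genes Pmaip1 went from 42.3 and 43.1 CPM to 825 and 903 CPM, and Bbc3 (1.70 ± 0.28), Bax (0.89 ± 0.10) and the apoptosome gene Apaf1 (1.76 ± 0.08) rose too. The caspase gene Casp8 did not pass (0.18 ± 0.10), though it did without vehicle library A (0.30). Protective genes did not move as one: Bcl2 fell from 9.57 and 9.79 CPM to 6.68 and 4.90 CPM and Mcl1 rose (0.26 ± 0.07), with no call without doxorubicin library B (0.20). Bid, which promotes death, fell (-0.59 ± 0.18), with no call without vehicle library B (-0.48), and Birc5 fell too (-0.69 ± 0.07), which is also a mitosis gene.

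DNA repair genes linked to p53 had members in both directions. Of 19 tested, 8 rose and 7 fell, with a median of 0.04, and 4 fell without either vehicle library or doxorubicin library A. Ercc5, a nuclease of nucleotide excision repair, rose from 6.76 and 6.85 CPM to 36.9 and 34.9 CPM. Polk, a DNA polymerase that bypasses damage, rose from 29.1 and 29.7 CPM to 121 and 110.2 CPM. Rrm2b, the ribonucleotide reductase subunit made outside S phase (1.32 ± 0.08), Gadd45a (1.39 ± 0.09) and the damage sensor gene Xpc (0.87 ± 0.17) rose as well. In contrast Rpa1, which coats single-stranded DNA, fell (-0.58 ± 0.14). Polh, another bypass polymerase gene, fell as well (-0.64 ± 0.19), with no call without vehicle library B (-0.49).

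Metabolic targets rose in 13 of 17 cases, 3 fell, and the median was 1.86. Lpin1, which encodes a phosphatidate phosphatase of fat synthesis, went from 2.57 and 2.03 CPM to 31.7 and 34.3 CPM. Dram1, a lysosomal autophagy gene, went from 8.10 and 7.59 CPM to 50.2 and 52.7 CPM. Ddit4 (1.86 ± 0.14) and Sesn2 (2.31 ± 0.52), both of which restrain mTORC1, rose, while Pank1 (-0.42 ± 0.10) and the AMP kinase subunit gene Prkab2 (-0.92 ± 0.17) fell. Among 43 further genes that p53 binds or induces, 31 rose, 3 fell and 9 did not pass. Arap2 (3.22 ± 0.09), Ano3 (2.89 ± 0.10), Ptpn14, a brake on YAP (2.40 ± 0.10), and Slc19a2, the thiamine transporter gene (2.18 ± 0.07), rose. Among the 3 that fell were Thbs1 (-1.26 ± 0.09) and Hbegf (-0.32 ± 0.07), both genes for secreted proteins.

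**Figure D3:**
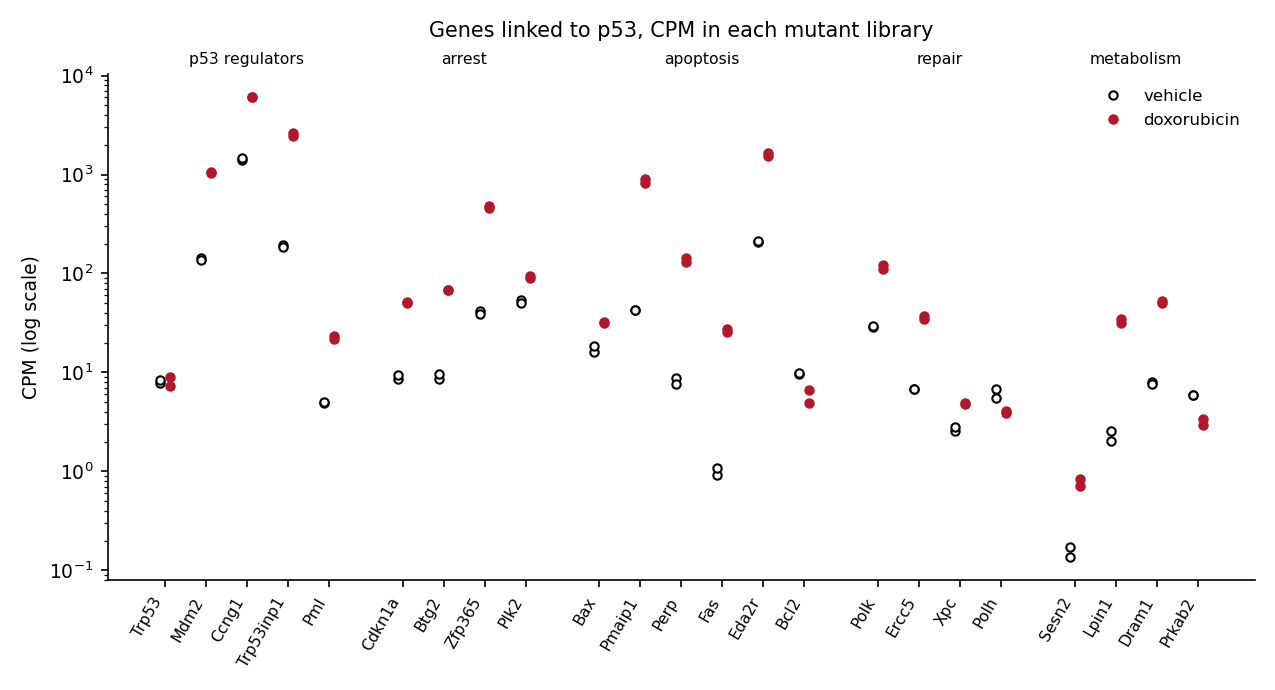
CPM on a log axis of genes linked to p53 in each of the 4 mutant libraries, open circles for vehicle and filled circles for doxorubicin, grouped by role. Trp53 is the gene whose libraries overlap, Bcl2, Polh and Prkab2 are lower with doxorubicin, and the treated libraries of the other genes lie above the vehicle ones.

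Genes of mitosis and DNA replication mostly fell, and G1 regulators were divided. Fewer dividing cells and less RNA per dividing cell cannot be told apart in such bulk samples. In the list of G1 regulators, of 28 tested genes 6 rose, 12 fell and 10 did not pass the test, with a median log2 fold change of -0.32. E2f8, a repressor of the E2F family that is made in S phase, fell from 24.9 and 21.4 CPM to 7.12 and 5.69 CPM. Ccne1, the cyclin that starts S phase, fell from 2.88 and 2.41 CPM to 0.400 and 0.830 CPM. Skp2, which marks p27 for destruction, fell (-1.03 ± 0.09), and so did Cdkn1b, the gene for p27 itself (-1.50 ± 0.18). The pocket protein genes moved apart: Rb1 rose from 36.6 and 36.8 CPM to 281 and 275 CPM, a 7.57-fold change, Rbl2 rose (1.99 ± 0.19) and Rbl1 did not pass (-0.18 ± 0.08), though it did without either doxorubicin library of WT (-0.19 in both cases). Ccnd1 rose (0.36 ± 0.07) and Ccnd2 did not pass (0.09 ± 0.11).

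Of the kinases and cyclins of mitotic entry, 24 of 27 fell and 2 rose, with a median of -0.74. Fbxo5, the inhibitor of the anaphase-promoting complex, fell from 35.6 and 34.4 CPM to 11.1 and 10.4 CPM. Ccnb2 (-1.35 ± 0.14), Ccnb1 (-0.78 ± 0.08), Ccna2 (-0.75 ± 0.07) and Cdk1 (-0.68 ± 0.09) fell, and so did Wee1, the kinase that holds Cdk1 off, from 199 and 189 CPM to 82.3 and 77.8 CPM. Activators and inhibitors of entry were thus both lower. Plk1 (-1.20 ± 0.24) and Foxm1 (-0.98 ± 0.14) fell too, while Mastl (0.49 ± 0.10) and Ccnf (0.36 ± 0.14) rose, the last with no call without any 1 of the 4 mutant libraries.

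Of the kinetochore and spindle genes, 34 of 52 fell, 6 rose and 12 did not pass, with a median of -0.53. Racgap1, a regulator of cytokinesis, fell from 28.03 and 27.3 CPM to 10.00 and 7.63 CPM. Nuf2, a subunit of the microtubule-binding NDC80 complex, fell from 16.1 and 17.9 CPM to 5.40 and 5.93 CPM, and Cenpf, a kinetochore gene, from 24.8 and 21.9 CPM to 8.00 and 8.34 CPM. A partner of Nuf2 in the same complex moved the other way: Spc25 rose from 164 and 158 CPM to 405 and 413 CPM, with both treated libraries at more than 2 times the level of the vehicle ones. The other subunit genes stood between them, with Spc24 lower (-0.62 ± 0.17) and Ndc80 not past the test (0.18 ± 0.13). Ckap2 (1.75 ± 0.09), Cenpt (1.55 ± 0.20), Kif18b (1.22 ± 0.16), Cenpe (0.93 ± 0.09) and Cenph (0.49 ± 0.11) were the remaining genes that rose.

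The promoters of this list were searched for TTTGAA, the core of the cell cycle homology region that the DREAM complex reads, and for CCAAT, the box bound by NF-Y. On either strand TTTGAA was in 30 of 48 matched promoters of the list (62.5%) against 17.9% of all 32851 and 1139 of 9511 matched to tested genes, and CCAAT in 34 of 48 (70.8%) against 37.4% and 39.2%. Neither motif contains the other. The 250 bases before the starts of Mki67, which fell, and Spc25, which rose, are shown with both motifs in capitals, from chr7:135716380-135716629, minus strand and chr2:69206214-69206463, minus strand of GRCm38.p6 (RefSeq).
Mki67: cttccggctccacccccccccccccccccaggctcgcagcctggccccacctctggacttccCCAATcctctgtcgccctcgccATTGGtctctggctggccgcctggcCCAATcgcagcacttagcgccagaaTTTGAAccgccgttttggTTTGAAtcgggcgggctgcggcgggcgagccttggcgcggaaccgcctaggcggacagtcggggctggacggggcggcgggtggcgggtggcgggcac
Spc25: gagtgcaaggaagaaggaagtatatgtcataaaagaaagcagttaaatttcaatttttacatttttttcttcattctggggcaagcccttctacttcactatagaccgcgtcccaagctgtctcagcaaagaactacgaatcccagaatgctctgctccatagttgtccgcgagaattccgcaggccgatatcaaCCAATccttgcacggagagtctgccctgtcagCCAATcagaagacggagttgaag

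The Mki67 window held TTTGAA 2 times, which begin 116 and 98 bases before the start, and CCAAT 3 times, 1 of them on the other strand. In the Spc25 window CCAAT was present 2 times, and TTTGAA was not among these 250 bases.

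DNA replication genes fell as a group with exceptions. Of 52 tested, 29 fell, 5 rose and 18 did not pass (median -0.41). The number that rose was 2 without vehicle library A and 3 without vehicle library B or doxorubicin library B. Origin licensing genes were among the lowest, with Cdt1 from 10.5 and 10.3 CPM to 4.16 and 3.79 CPM and Cdc6 from 9.37 and 10.5 CPM to 3.92 and 3.76 CPM. Uhrf1, which carries DNA methylation through replication, fell from 112 and 120.3 CPM to 41.8 and 37.7 CPM. Helicase subunit genes changed little or in both directions: Mcm5 (-0.53 ± 0.14), Mcm6 (-0.44 ± 0.11) and Mcm4 (-0.38 ± 0.06) fell while Mcm7 (0.39 ± 0.14) rose, and Mcm7 had no call without vehicle library A (0.17) or doxorubicin library B (0.27) and stood at 0.64 without vehicle library B. Rrm2, the ribonucleotide reductase subunit made in S phase, rose from 707 and 746 CPM to 1132 and 1149.9 CPM, and its partner gene Rrm1 fell (-0.65 ± 0.12). The E2F-type letters TTTCCCGC were in 8 of 42 matched promoters against 1.07% of all and 2.16% of those matched to tested genes, and TTTGGCGC in 7 of 42 against 0.514% and 1.05%, both strands read. The Mcm6 promoter (chr1:128359706-128359955, minus strand, GRCm38.p6, RefSeq) is shown as an example with TTTGGCGC in capitals.
Mcm6: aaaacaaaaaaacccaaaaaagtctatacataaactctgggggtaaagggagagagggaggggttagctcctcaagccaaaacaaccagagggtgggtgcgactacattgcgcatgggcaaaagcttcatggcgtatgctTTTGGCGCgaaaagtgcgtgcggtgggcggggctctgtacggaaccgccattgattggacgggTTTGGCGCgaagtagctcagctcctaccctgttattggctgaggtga

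Genes that sense and signal breaks mostly did not pass the test. Of 31 tested, 4 rose and 10 fell (median -0.17). The kinase genes Atm (-0.59 ± 0.10), Atr (-0.71 ± 0.13) and Chek1 (-0.66 ± 0.11) fell. Chek2 rose (0.49 ± 0.15), with no call without vehicle library A (0.42) or doxorubicin library B (0.39). Within the MRN complex, which binds broken ends, Rad50 rose from 10.6 and 11.1 CPM to 20.6 and 21.4 CPM, Nbn fell (-0.82 ± 0.17) and Mre11a did not pass (-0.11 ± 0.15). Top2b (-0.17 ± 0.07), a target of the drug, did not pass, but it did at -0.17 or -0.18 without any 1 of the 4 WT libraries, and Top2a, its form in dividing cells, fell (-0.45 ± 0.07). In homologous recombination and the Fanconi pathway 3 of 28 genes rose and 7 fell. Brca2, whose product is needed for recombination, fell from 9.09 and 7.76 CPM to 3.84 and 4.19 CPM. Exo1, a nuclease that trims broken ends, fell (-1.12 ± 0.13) and Fancg (0.91 ± 0.10) rose.

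Genes that build ribosomes were lower. Myc, the transcription factor that drives this program, fell from 38.97 and 38.5 CPM to 12.4 and 10.2 CPM, with no overlap. Among its antagonists Mxd1 (2.27 ± 0.18) and Mxi1 (1.01 ± 0.09) rose and Mnt fell (-0.85 ± 0.19). Tfap4, a gene Myc activates, fell (-2.62 ± 0.12) and Max, the shared partner, did not pass (-0.13 ± 0.08). In the ribosome biogenesis list, of 59 tested genes 3 rose, 39 fell and 17 did not pass the test, with a median log2 fold change of -0.71. Nop56, a core protein of box C/D particles, fell from 10.6 and 9.12 CPM to 2.44 and 1.94 CPM. Dkc1, the pseudouridine synthase of box H/ACA particles, fell from 37.6 and 37.6 CPM to 11.7 and 11.8 CPM. Polr1b, a subunit gene of RNA polymerase I (-2.30 ± 0.38), Nolc1 (-1.62 ± 0.10), Ncl (-0.94 ± 0.08) and Npm1 (-0.70 ± 0.07) fell as well. Against this, Rrn3, the initiation factor of RNA polymerase I, rose from 338 and 338 CPM to 587 and 559 CPM, and Polr1e, a subunit gene of the polymerase, rose (0.91 ± 0.15). The letters CACGTG, the E-box that Myc and Max bind, were in 11 of 53 promoters of the list (20.8%) against 7.15% of all and 10.2% of those matched to tested genes. It was in 13 of 52 promoters of the autophagy and lysosome list, which mostly rose, and 5 of 14 (35.7%) in the p53 DNA repair list.

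Host genes of small nucleolar RNAs fell in all but 2 cases. Of 14 tested 12 fell and none rose, with a median of -1.17, and Snhg10 (0.05 ± 0.16) and Rab30 (0.25 ± 0.19) did not pass. Snhg5 went from 426 and 453 CPM to 121 and 126 CPM, Gas5 from 51.7 and 53.8 CPM to 23.2 and 21.6 CPM and Snhg1 from 174 and 172 CPM to 98.5 and 97.9 CPM. These host RNAs carry the small RNAs in their introns. The ribosomal protein genes themselves changed little: of 79 tested 6 rose, 12 fell and 61 did not pass, shares under those of all genes. The number that rose was 2 without vehicle library A and 10 without vehicle library B. Rps27l, which p53 activates, rose (0.74 ± 0.07). Ribosomal protein genes have many near-identical copies, and their counts are uncertain.

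Splicing factor genes fell too. Of 57 tested 37 fell and 7 rose (median -0.44), and 4 rose without vehicle library B or doxorubicin library B. Srsf1 fell from 2047 and 2076 CPM to 711 and 714 CPM and Srsf2 from 3332 and 3181 CPM to 1160.5 and 1131 CPM, both genes of SR proteins, which mark exons for splicing. Srsf3 (-1.17 ± 0.07), Srsf10 (-1.12 ± 0.07) and Srsf6 (-0.86 ± 0.07) fell, Srsf5 (-0.13 ± 0.09) and Srsf9 (-0.03 ± 0.07) did not pass, and Rbm38, an RNA-binding gene that p53 induces, rose (1.91 ± 0.50).

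Genes over 200 kb were lower more often. Of 664 genes that span over 200 kb in GENCODE M21, 39.9% fell and 18.2% rose, against 26.4% and 28.2% of all 11784 genes matched to it (96.2% of those tested). Spans of up to 5 kb gave 20.7% lower and 27.8% higher, and spans between 5 and 200 kb gave 22.5% to 29.1% lower. Since calls also depend on level, shares were taken within 3 equal classes of CPM. In the middle class the genes over 100 kb were lower in 35.2% and higher in 21.5%, against 24.2% and 28.9% for those up to 20 kb and 28.3% and 29.5% for those between. In the lowest class 16.4% of the genes over 100 kb were lower and 16.9% higher, against 11.3% and 21.6% up to 20 kb and 11.7% and 23.9% between. In the highest class the genes over 100 kb, with 42.6% lower and 34.5% higher, were close to those of 20 to 100 kb, with 41.1% and 33.3%, and those up to 20 kb had 35.7% and 36.5%. Gli3 (-1.13), a Hedgehog transcription factor gene, and Mmp16 (-1.81), a membrane protease gene, are in the longest class.

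**Figure D4:**
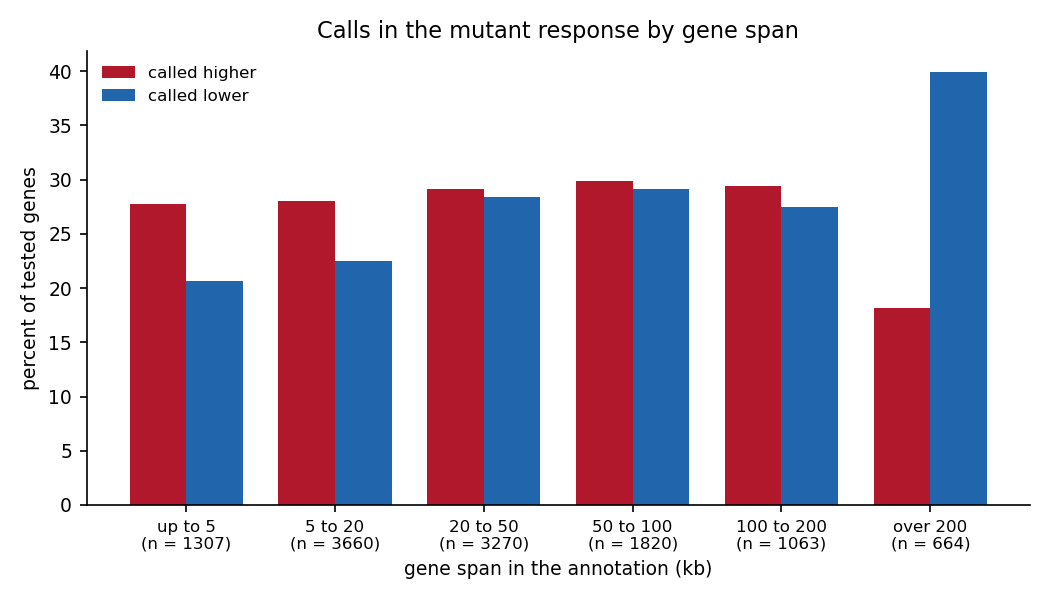
Percent of tested genes called higher and lower with doxorubicin in mutant cells, by the span of the gene in GENCODE M21 (kb, number of genes below each bin). The bin over 200 kb has 39.9% of its genes lower and 18.2% higher, and the other bins lie between 20.7% and 29.9%.

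RNA of growth factor and receptor genes changed in both directions. Of 37 growth factor and receptor genes, 9 rose and 14 fell (median -0.22). Ligands that fibroblasts make for epithelia fell, Fgf7 from 71.3 and 65.6 CPM to 18.7 and 16.4 CPM and Fgf10 from 35.5 and 37.96 CPM to 10.00 and 10.99 CPM, and so did Hgf (-1.06 ± 0.26). Both receptor genes for platelet-derived growth factor fell, Pdgfra from 85.2 and 80.8 CPM to 25.97 and 21.5 CPM and Pdgfrb from 11.6 and 13.1 CPM to 3.80 and 3.32 CPM. Treated libraries were below vehicle libraries in each case. Their ligand genes moved apart, with Pdgfa higher (2.24 ± 0.21) and Pdgfc lower (-0.95 ± 0.07). Igf1r (-0.78 ± 0.08) and Igfbp5 (-0.91 ± 0.08) fell, Igf2 (0.12 ± 0.09) and Vegfa (0.01 ± 0.11) did not pass, and Vegfc (1.10 ± 0.11), Met (0.87 ± 0.08) and Kitl (0.77 ± 0.09) rose.

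In the EGF receptor family the receptor and a pair of its ligands were higher. Of 13 tested genes 6 rose and 1 fell. The receptor gene Egfr went from 28.9 and 25.6 CPM to 66.9 and 66.1 CPM. Its ligand genes Ereg, from 437 and 389 CPM to 1137 and 1052 CPM, and Areg, from 0.515 and 0.915 CPM to 6.00 and 5.30 CPM, rose with it, and Hbegf fell (-0.32 ± 0.07).

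Immediate early genes, which growth factors and stress turn on within minutes, had members in both directions. Among them 17 of 33 rose and 11 fell (median 0.35), but 6 fell without either vehicle library and 5 without doxorubicin library A. Fos rose from 8.40 and 5.93 CPM to 60.5 and 58.9 CPM, Fosb from 5.39 and 6.13 CPM to 17.2 and 21.03 CPM and Egr1 from 176 and 172 CPM to 507 and 474 CPM. Their AP-1 partner Jun fell (-0.55 ± 0.07), Junb rose (0.96 ± 0.13) and Jund did not pass (0.01 ± 0.23). Zfp36l2, which promotes decay of AU-rich mRNAs (-1.35 ± 0.09), fell, while Klf10 (1.03 ± 0.06) and Zfp36, of the same family as Zfp36l2 (0.76 ± 0.11), rose. Genes that limit ERK signaling did not move as one: the phosphatase genes Dusp6 (0.66 ± 0.07) and Dusp1 (0.43 ± 0.06) rose, and Spry1 (-0.79 ± 0.09), Spry2 (-0.50 ± 0.08) and Spred1 (-0.59 ± 0.09) fell, though Spry4 rose (0.46 ± 0.12).

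In the TGF-beta and BMP pathway 17 of 44 genes rose and 12 fell (median 0.06). Ligand genes Gdf6 (2.07 ± 0.14), Bmp2 (2.79 ± 0.22) and Inhbb (1.21 ± 0.08) rose and Tgfb3 (-0.60 ± 0.10) and Inhba (-0.66 ± 0.10) fell. The BMP antagonist gene Grem1 fell from 10.6 and 9.56 CPM to 3.72 and 2.17 CPM, and the receptor gene Bmpr1b fell from 44.7 and 40.3 CPM to 15.6 and 14.6 CPM. Of the Id genes, direct targets of BMP signaling, Id2 rose (1.06 ± 0.07), Id3 fell from 10.7 and 12.6 CPM to 6.04 and 5.61 CPM and Id1 did not pass (-0.13 ± 0.10).

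The Wnt list held 7 genes that rose and 11 that fell of 35 (median -0.04). Receptor genes were among those that fell, Lgr5 from 26.5 and 22.9 CPM to 5.44 and 4.51 CPM, Fzd2 from 19.3 and 20.3 CPM to 4.32 and 4.35 CPM and Fzd7 (-0.97 ± 0.07), and so did Lgr4 (-1.23 ± 0.08) and the ligand gene Wnt5a (-0.68 ± 0.07). Wnt9a, another ligand gene, rose from 1.37 and 2.03 CPM to 26.4 and 28.1 CPM. Ctnnb1, the gene for beta-catenin, did not pass (-0.06 ± 0.06). In the Notch list 5 of 18 genes rose (27.8%), 6 fell (33.3%) and 7 did not pass (median 0.01). The receptor genes Notch1 (1.75 ± 0.19) and Notch3 (4.22 ± 0.28) rose. The ligand gene Jag1 fell from 2955 and 2897 CPM to 1944 and 1886 CPM, as did the target genes Hey1 (-1.19 ± 0.11), Hes1 (-0.45 ± 0.07) and Nrarp (-0.93 ± 0.20). Dll1, another ligand gene, had 0 and 0 reads with vehicle and 22 and 27 reads with doxorubicin, at least 9.52-fold higher against the same floor. In the Hedgehog list 2 of 8 genes rose, 2 fell and 4 did not pass. Gli3 fell from 199.8 and 206 CPM to 90.7 and 95.03 CPM and Hhip, a brake on the pathway, rose (1.09 ± 0.23), by 0.71 without vehicle library B.

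Contractile genes and targets of YAP and SRF fell more often than they rose. In all 19 of 36 fell and 4 rose (median -0.32), and 2 rose without either vehicle library or doxorubicin library A. Ankrd1 fell from 89.4 and 81.4 CPM to 14.7 and 17.1 CPM, Ctgf from 2976 and 2552 CPM to 1124 and 1036 CPM and Cyr61 from 225 and 197 CPM to 123 and 129 CPM, all known targets of YAP. The genes of YAP itself, Yap1 (-0.64 ± 0.09), of its DNA-binding partner Tead1 (-0.77 ± 0.08) and of its inhibitory kinase Lats1 (-0.64 ± 0.10) fell also. Mylk, the myosin light chain kinase gene, fell from 284 and 264 CPM to 119 and 104 CPM, while Tagln (-0.12 ± 0.08), Tpm1 (0.01 ± 0.06) and Axl (0.06 ± 0.06) did not pass. Actb, the gene for beta-actin, went from 5.52% and 5.97% of all counts with vehicle to 4.33% and 4.22% with doxorubicin and fell (-0.44 ± 0.07).

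**Figure D5:**
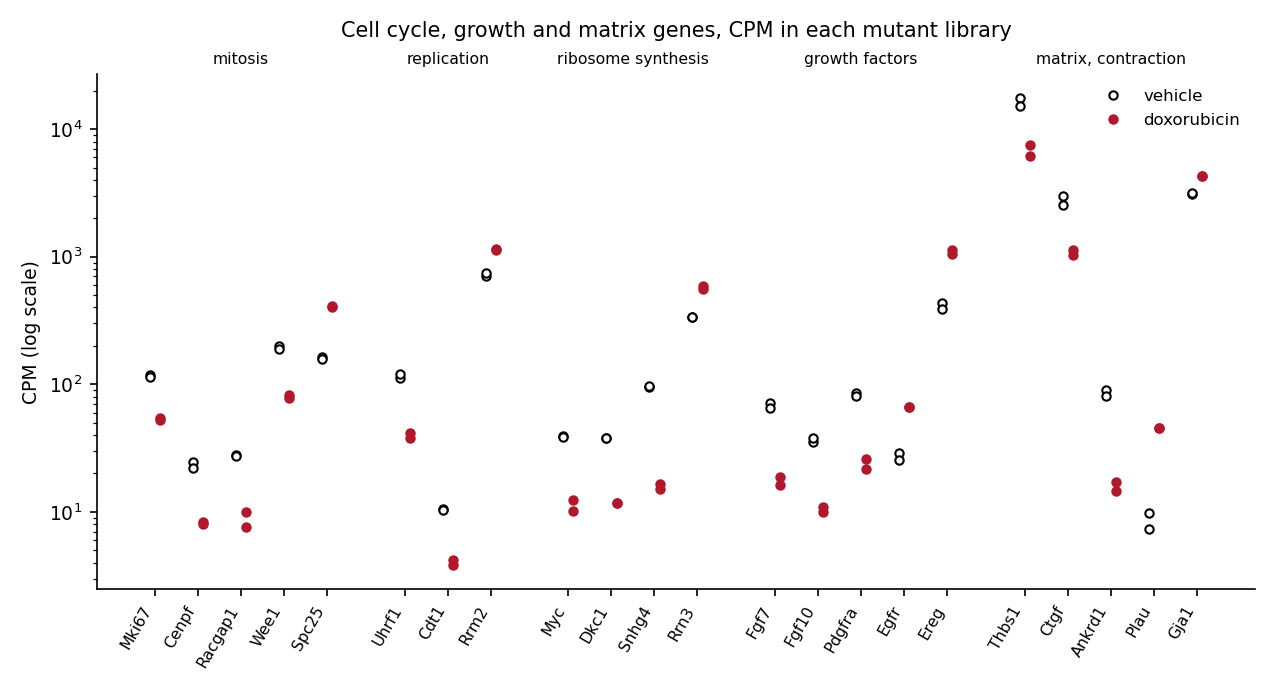
CPM on a log axis of cell cycle, ribosome synthesis, growth factor and matrix genes in each of the 4 mutant libraries, open circles for vehicle and filled circles for doxorubicin. Spc25, Rrm2, Rrn3, Egfr, Ereg, Plau and Gja1 are higher with doxorubicin and the other genes shown are lower, and no gene shown has overlapping groups.

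Lists of matrix genes stood near the shares of all genes. Among collagens 9 of 29 rose (31.0%) and 7 fell (24.1%), 4 without vehicle library A, and the fibril genes Col1a1 (-0.07 ± 0.07) and Col1a2 (-0.03 ± 0.07) did not pass. Col27a1 rose from 18.4 and 17.96 CPM to 65.5 and 66.8 CPM and Col3a1 fell from 243 and 226 CPM to 195 and 172 CPM. Of 52 adhesion and matrix genes of fibroblasts 16 rose and 16 fell (30.8% each, median 0.13). The members of this list named next are more often ones that fell. Thbs1, an activator of latent TGF-beta, fell from 17670.0 and 15065 CPM to 7504 and 6184 CPM. Cdh11, a cadherin of mesenchymal cells, fell from 1407 and 1302 CPM to 516 and 450.0 CPM, with Prrx1 from 1351 and 1274 CPM to 509 and 479 CPM, Has2 (-1.40 ± 0.08), Itga5 (-1.73 ± 0.19) and Twist2 (-1.56 ± 0.11), while Nid2 (1.66 ± 0.12) and Itga6 (1.28 ± 0.08) rose. In the list of proteases and inhibitors 9 of 36 rose and 11 fell (30.6%). The plasminogen activator gene Plau rose from 9.85 and 7.35 CPM to 45.1 and 45.6 CPM. Serpine2, an inhibitor gene of this system, rose from 42.6 and 46.6 CPM to 205 and 222 CPM, and Plat, the other activator gene, fell (-0.82 ± 0.10). Adamts1 (-1.73 ± 0.11), Adamts5 (-1.71 ± 0.08) and Mmp16 (-1.81 ± 0.14) fell, Mmp2 rose (0.75 ± 0.12) and Timp2 did not pass (-0.01 ± 0.07).

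Inflammatory genes did not move as one. For chemokines and cytokines 8 of 25 rose and 11 fell. Ccl2, which attracts monocytes, rose from 44.7 and 40.8 CPM to 147 and 162 CPM and Lif from 1.10 and 1.39 CPM to 11.7 and 8.81 CPM. Ccl7, a related chemokine gene, stood at 59.4 and 60.6 CPM with vehicle and 61.6 and 60.4 CPM with doxorubicin and did not pass. Il6 (-1.25 ± 0.22), Cxcl12 (-1.10 ± 0.08), Cxcl5 (-1.29 ± 0.20) and Tnfsf11 (-1.38 ± 0.12) fell, and Il7 (2.28 ± 0.21) and Il15 (3.03 ± 0.27) rose. NF-kappaB subunits and feedback genes rose in 17 of 30 cases and fell in 2 (median 0.47). The inhibitor genes Nfkbia (0.97 ± 0.09) and Tnfaip3 (1.51 ± 0.11) and the prostaglandin synthase gene Ptges, from 6.42 and 6.41 CPM to 37.7 and 50.6 CPM, rose. Nfkb1 (-0.24 ± 0.12) and Rela (0.11 ± 0.17), the genes of the main subunits, did not pass. Icam1 rose from 0.377 and 0.610 CPM to 14.3 and 14.1 CPM and Vcam1, also an adhesion gene for leukocytes, fell (-0.43 ± 0.08).

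Of 42 interferon-stimulated genes 19 rose, 2 fell and 21 did not pass, with a median of 0.53. Without vehicle library B 11 rose. Ifitm3, whose product restricts virus entry, rose from 65.6 and 64.97 CPM to 154 and 189 CPM. The antigen presentation genes B2m (0.53 ± 0.07), H2-K1 (0.48 ± 0.11) and Tapbp (0.79 ± 0.10) rose, and Tap1, which p53 also activates, went from 0.240 and 0.169 CPM to 4.68 and 4.62 CPM. Classic interferon targets such as Ifit3 (0.40 ± 0.43), Isg15 (-0.14 ± 0.80) and Rsad2 (0.22 ± 0.44) did not pass. Ifit1 did not pass either (0.58 ± 0.32), though it did without vehicle library A (1.18). Samhd1, a restriction factor gene that cleaves nucleotides, fell (-0.53 ± 0.12).

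Genes of autophagy and lysosomes rose in 35 of 64 cases, and 2 fell (median 0.39). Uvrag, a membrane trafficking gene, was among those that fell (-0.65 ± 0.11). Ulk1, the kinase that starts autophagy, rose from 2.23 and 1.15 CPM to 5.64 and 5.26 CPM. Wipi1 (1.19 ± 0.13), Atg2b (0.76 ± 0.08) and Atg3 (0.78 ± 0.07) rose in later steps of membrane formation. Lysosomal genes rose as well, Ctsd from 18.1 and 19.4 CPM to 39.8 and 42.2 CPM, and Lamp2 (0.48 ± 0.06), Lipa (0.95 ± 0.10) and the proton pump gene Atp6v1a (0.90 ± 0.07), while Atg5 (0.18 ± 0.09), Atg7 (0.02 ± 0.30) and Ctsl (0.11 ± 0.08) did not pass.

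The glycolysis list stood near the shares of all genes: 6 of 28 genes rose (21.4%) and 8 fell (28.6%), and 3 fell without vehicle library B and 4 without doxorubicin library A. Hk2, the first enzyme of the pathway, fell from 11.8 and 11.7 CPM to 2.16 and 2.25 CPM, and the glucose transporter gene Slc2a1 fell (-0.55 ± 0.07). Pfkfb2 rose from 36.3 and 37.9 CPM to 97.8 and 96.5 CPM, and Ldha (-0.13 ± 0.07) and Aldoa (-0.15 ± 0.08) did not pass. Among genes of the respiratory chain and its regulators 21 of 66 rose and 8 fell (median 0.07). Without vehicle library A 11 rose and 5 fell, and 5 fell without vehicle library B or doxorubicin library A. The regulators moved apart, with Nrf1 from 32.6 and 26.7 CPM to 4.24 and 4.59 CPM and Pprc1 lower (-1.48 ± 0.20), and Ppargc1a (2.56 ± 0.31) and Esrra (1.77 ± 0.21) higher. Every subunit gene that rose did so by less than 2-fold, with Cox4i1 (0.78 ± 0.08) and Ndufb2 (0.80 ± 0.18) highest.

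Amino acid and lipid synthesis genes fell more often than they rose. Atf4, the transcription factor of the amino acid response, went from 94.4 and 105 CPM to 42.3 and 46.4 CPM, and of 53 genes with its targets and the aminoacyl-tRNA synthetases 34 fell and 6 rose (median -0.48), and 3 rose without doxorubicin library B. Mthfd2, a mitochondrial folate enzyme, fell from 48.3 and 46.8 CPM to 14.2 and 13.95 CPM, and Tars (-1.49 ± 0.16), Aars (-1.05 ± 0.19) and Asns (-0.67 ± 0.09) fell, while Cth, which makes cysteine, rose from 10.1 and 10.1 CPM to 29.7 and 26.2 CPM. Of 41 genes of cholesterol and fatty acid synthesis 21 fell and 7 rose (median -0.40). Insig1 fell from 296 and 306 CPM to 104 and 109 CPM and Cyp51 from 258 and 249 CPM to 97.5 and 91.9 CPM. The cholesterol exporter genes Abca1 (0.46 ± 0.10) and Abcg1 (1.35 ± 0.11) rose.

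Stress genes were divided. NRF2 antioxidant genes rose in 21 of 40 cases and fell in 6 (median 0.30), in 3 without doxorubicin library A, with Nqo1, a quinone reductase gene, from 66.5 and 63.9 CPM to 108 and 110.4 CPM. Hmox1, which breaks down heme, rose from 16.7 and 17.1 CPM to 26.8 and 53.6 CPM (1.25 ± 0.36), and without doxorubicin library B it stood at 0.66 with no call. The NRF2 gene Nfe2l2 rose (0.83 ± 0.08) and its inhibitor Keap1 fell (-0.86 ± 0.16). Gclc, the catalytic subunit gene of glutathione synthesis, rose (1.17 ± 0.08). Of 32 genes of the unfolded protein response 6 rose (18.8%) and 9 fell (28.1%), the latter near the 25.9% of all genes. Among those that fell was Xbp1, from 11.7 and 10.9 CPM to 3.64 and 3.79 CPM. The main chaperone gene Hspa5 fell from 682 and 689.6 CPM to 405 and 402 CPM. Heat shock genes were mixed (10 rose and 14 fell of 34), with Hspa8 lower (-1.14 ± 0.09) and Cryab (1.11 ± 0.09) and Hspa2 (1.14 ± 0.07) higher. Of 43 proteasome genes 9 rose and 15 fell (median -0.08), with the assembly factor gene Psmg1 lower (-1.12 ± 0.17) and the activator gene Psme4 higher (0.39 ± 0.08). These counts rest on single libraries: 3 rose and 9 fell without vehicle library A, 3 and 7 without doxorubicin library B, 8 fell without vehicle library B and 5 rose without doxorubicin library A.

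Patterning genes were lower more often than higher. Of 28 tested Hox genes 13 fell and 3 rose, with a median of -0.62. Hoxd13 fell from 122 and 120.4 CPM to 53.02 and 50.9 CPM and Hoxa10 from 378 and 389 CPM to 192 and 216 CPM. Hoxc13 ran against most of them and rose from 4.63 and 5.52 CPM to 24.9 and 26.96 CPM. Hoxa5 (1.00 ± 0.12) and Hoxc6 (0.70 ± 0.17) rose too, while Hoxc8, of the same cluster as Hoxc6 and Hoxc13, fell (-1.16 ± 0.10). Of 70 chromatin genes 13 rose and 23 fell. Within Polycomb repressive complex 2 Ezh2 (-0.84 ± 0.11) and Suz12 (-0.79 ± 0.07) fell and Eed rose from 20.1 and 18.8 CPM to 56.7 and 51.6 CPM. The histone H3 lysine 9 methyltransferase genes Suv39h1 (-1.21 ± 0.16) and Suv39h2 (-1.27 ± 0.11) fell together with Cbx3, a reader of that mark, from 47.96 and 44.8 CPM to 16.1 and 16.96 CPM. Tet1, which oxidizes DNA methylation, rose from 14.4 and 10.1 CPM to 63.5 and 55.6 CPM, and Tet3 fell (-0.55 ± 0.07).

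The Zfp family stood near the shares of all genes. Of 302 Zfp zinc finger genes 67 rose (22.2%) and 75 fell (24.8%), with Zfp503 among those that fell (-1.76 ± 0.10). Solute carriers rose somewhat more often, 78 of 209 (37.3%), and 42 fell (20.1%). Slc19a2 went from 74.6 and 75.1 CPM to 327 and 351 CPM, and Slc33a1, which carries acetyl-CoA into the secretory pathway, from 61.9 and 55.2 CPM to 189 and 205 CPM. The amino acid transporter genes Slc38a1 (-1.19 ± 0.08) and Slc38a2 (-0.97 ± 0.07) and the lactate transporter gene Slc16a1 (-0.70 ± 0.07) fell. Connexin genes went both ways: Gja1, the main connexin gene of fibroblasts, rose from 3096 and 3143 CPM to 4284 and 4269 CPM, Gja3 rose (2.19 ± 0.11), and Gjb2 fell (-3.47 ± 0.10). Replication-dependent histone genes, whose RNAs lack a poly(A) tail for the most part, rose in 8 of the 12 cases tested of 75 in the table, with Hist2h3c1 from 41.5 and 37.5 CPM to 96.2 and 102 CPM and Hist1h1c lower, from 21.6 and 22.7 CPM to 7.04 and 8.38 CPM. In the clock list 5 of 21 genes rose and 6 fell, 3 rose without either vehicle library, and Arntl (0.54 ± 0.09) and Clock (-0.58 ± 0.09), which form 1 complex, went in opposite directions. The shares of the clock list, 23.8% higher and 28.6% lower, stood near those of all genes. Imprinted genes were also mixed (9 rose, 6 fell of 22), and Magel2 rose from 0.755 and 0.542 CPM to 31.3 and 38.5 CPM. Beside Cdkn1a on the chromosome, 10 neighbours were tested: Srsf3 (-1.17 ± 0.07) and Ppil1 (-0.90 ± 0.18) fell, Mtch1 rose (0.23 ± 0.09), and 7 did not pass. Without any 1 of the 4 mutant libraries Mtch1 had no call.

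The last comparison asked whether this response differs from that of WT cells, by a test of the difference itself. It passed for 9 of 12255 genes (0.0734%), and 697 (5.69%) had an unadjusted p under 0.05. With edgeR the count was 0 without vehicle library B of WT (686 genes at an unadjusted p under 0.05) or vehicle library A of the mutant (579), 3 without vehicle library A of WT, vehicle library B of the mutant or doxorubicin library B of the mutant, and 4 without doxorubicin library A of the mutant. Without doxorubicin library B of WT it was 51, and without doxorubicin library A of WT it was 9. The 9 include Mki67, the proliferation marker, which fell from 118 and 114 CPM to 52.2 and 54.3 CPM in mutant cells and from 116 and 123 CPM to 32.8 and 36.1 CPM in WT cells (difference of log2 fold changes 0.67 ± 0.11). Hmmr, a spindle gene, fell from 46.1 and 47.3 CPM to 35.7 and 40.6 CPM in mutant and from 48.9 and 45.3 CPM to 22.3 and 23.2 CPM in WT cells (0.76 ± 0.12), and its fall in mutant cells had no call without vehicle library B (-0.27) or doxorubicin library A (-0.20). In both cases the vehicle libraries of the genotypes overlapped, and the treated mutant libraries were above the treated WT libraries. Besides these 2 and the clustered protocadherin gene Pcdhb3, no gene of the lists described here passed this test. For Mdm2 the difference was -0.18 ± 0.10, for Cdkn1a 0.05 ± 0.14 and for Pmaip1 0.13 ± 0.10, none past the test, which does not show that the responses are alike. The genotypes also differed in Xist and Y-linked RNA as given above, and Dino's own part in a difference cannot be told apart from other differences between the cultures.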

How the data were processed

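Gene counts of 8 RNA libraries were used as deposited by the authors, 1 table with whole counts per gene symbol and no normalization. Per the submitters' processing notes, Bowtie2, HTSeq and the build mm9 were used, without roles or versions. The labels name both the TruSeq RNA Access kit and 3' RNA sequencing, and which one made these counts could not be settled. The annotation and the use of strand are not given in the sources used here, so overlapping, antisense and near-identical genes may share reads. Levels of different genes were therefore not compared outside the marker check. That check summed levels over genes and named some with many reads, so it carries this limit. Of the tested rows 266 carry UCSC identifiers without a symbol. In the mutant libraries they hold 11.2% and 11.5% of all counts with vehicle and 15.2% and 15.9% with doxorubicin. Dates stand in place of symbols in 27 rows of the table.

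edgeR 4.0.16 (R 4.3.3) was run with TMM factors and its expression filter on the 4 groups (minimum count 10, minimum total 15), which kept 12255 of 30419 rows. The quasi-likelihood model had 1 mean per group over all 8 libraries and 4 residual degrees of freedom, and adjusted p-values (Benjamini-Hochberg over all tested genes) under 0.05 were called. Standard errors are the log2 fold change over the square root of F. CPM use TMM-scaled library sizes. The procedure was tested on simulated data before use. Gene spans came from GENCODE M21 (GRCm38) and promoters from RefSeq (GRCm38.p6), both matched by symbol. Alternatives were other scalings, DESeq2 1.42.0, voom in limma 3.58.1, other filters and thresholds, the mutant libraries alone, a replicate block, and leaving out each library.

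The mutant response and the gene lists were chosen with earlier results of these data known. Named are the 15 largest changes in each direction at a mean of at least 20 CPM, up to 3 called genes in each direction per list at a mean of at least 4 CPM, up to 2 uncalled genes per list, and further list members added for their roles after their values were seen. Chromosome, gene span and promoter shares were also added in this way. Some genes that this rule names are not reported here.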

Additional observations from a re-analysis of the deposited data

Results flagged for a closer look

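The test of the difference between the mutant and WT responses (mutant minus WT, log2, ± SE, edgeR with Benjamini-Hochberg adjustment over all genes) passed for 9 genes, each of which is listed for that reason. Values are CPM of libraries A and B.

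Apobec1, a cytidine deaminase gene, rose from 2.64 and 2.47 CPM to 13.00 and 12.9 CPM in mutant cells and went from 0.892 and 0.998 CPM to 13.05 and 13.4 CPM in WT cells, a difference of -1.45 ± 0.24. The treated libraries of the genotypes stood close together and the vehicle libraries apart. Bnc1, a zinc finger gene, rose from 6.72 and 7.15 CPM to 63.98 and 59.4 CPM and in WT cells went from 2.49 and 3.23 CPM to 55.4 and 46.3 CPM (-0.98 ± 0.18). Bcl11b, a transcription factor gene, rose from 197 and 197 CPM to 225 and 224 CPM against 102 and 85.8 CPM to 170.4 and 157 CPM in WT cells (-0.62 ± 0.11), and its rise in mutant cells (0.19) had no call without any 1 of the 4 mutant libraries. Pttg1, the securin gene, rose from 18.01 and 18.9 CPM to 30.5 and 31.3 CPM against 8.69 and 9.92 CPM to 28.4 and 26.5 CPM (-0.81 ± 0.14). For these 4 genes the mutant vehicle libraries were above the WT vehicle libraries.

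Esco2, a cohesin acetyltransferase gene, rose from 44.6 and 44.5 CPM to 90.95 and 85.7 CPM and went from 43.99 and 38.5 CPM to 46.2 and 55.4 CPM in WT cells (0.68 ± 0.13). The differences for Mki67 (0.67 ± 0.11) and Hmmr (0.76 ± 0.12) were of like size. Pcdhb3, a clustered protocadherin gene, stood at 2.37 and 1.05 CPM with vehicle and 1.20 and 1.03 CPM with doxorubicin in mutant cells, not past the test there, and went from 0.929 and 1.06 CPM to 3.91 and 3.00 CPM in WT cells (-2.40 ± 0.44). Prdm16, a chromatin regulator gene, stood at 2.54 and 1.59 CPM with vehicle and 2.92 and 2.96 CPM with doxorubicin in mutant cells, not past the test there, and went from 3.68 and 3.11 CPM to 1.62 and 1.25 CPM in WT cells (1.75 ± 0.33). Both are low, and the vehicle libraries of the mutant differed between themselves. Without vehicle library B the mutant response of Pcdhb3 passed at -1.08, and without vehicle library A that of Prdm16 passed at 0.88.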

How the results depend on the processing

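No gene called in the mutant response changed direction while called under any setting tried. The counts of genes called higher (3469) and lower (3177) stayed within 1.5 times under every alternative, with ranges of 2935 to 3490 and 2638 to 3337 when each library in turn was left out. The counts at 2-fold moved only with a filter at 5 CPM, which tested 7013 genes and gave 741 higher and 401 lower, and ranged from 1458 to 1603 and from 745 to 814 when a library was left out. The count of genes whose response differs from WT rests on few libraries: it ranged from 0 to 51 when a library was left out (values per library stand above, and the library left alone in a group is assumed to vary like the other groups, although the doxorubicin libraries of WT differed by 18.8 times sampling noise and the other pairs by 5.71 to 6.51). It was 15 with DESeq2's Wald test, 4 with voom, 48 without a filter, 5 with the filter at 5 CPM, and 18 at an adjusted p of 0.10. The letters A and B did not pair the libraries (correlations of the A minus B differences between groups ran from -0.055 to 0.103), and with a replicate block 3488 genes were higher, 3205 lower, 1549 and 787 at 2-fold, and 14 differed from WT. Leaving out genes on chromosomes X and Y or with no matched chromosome, an alternative added after seeing the data, gave 3203 higher and 2996 lower of 11348 genes. Upper-quartile scaling lowered the median log2 fold change of all genes to -0.04. It called 3160 genes higher and 3505 lower, so whether more genes rose or fell depends on the scaling. At 2-fold it still gave more rises, 1461 against 921 falls. DESeq2 took the call from Rbm38 (1.93), Hmox1 (1.25), Mcm7 (0.39), Ccnf (0.36), Mtch1 (0.23) and Bcl11b (0.19). Upper-quartile scaling took it from Mcm7 (0.33), Ccnf (0.31), Mtch1 (0.18) and Bcl11b (0.13), and called Aldoa (-0.20), Ldha (-0.18), Max (-0.19), Nfkb1 (-0.30), Rbl1 (-0.24) and Top2b (-0.22) lower. Without a filter Ccnf, Mtch1 and Bcl11b had no call. Of 363 named genes 338 kept their call under every setting that tested them, the one without chromosomes X and Y apart, and the filter at 5 CPM tested 336 of them and the fit of the mutant libraries alone 362. Of 2068 list counts under these settings 1938 stayed within 1.5 times. Those printed above that moved when a library was left out are given there, with some exceptions. The number of adhesion and matrix genes that rose moved too. So did counts of 2, namely genes that fell among NF-kappaB, interferon and autophagy genes, and both counts of the Hedgehog list. With DESeq2 2 p53 DNA repair genes, 7 immediate early genes, 4 glycolysis genes and 5 respiratory chain genes fell, and 2 DNA replication, 4 splicing and 3 clock genes rose. With upper-quartile scaling 5 proteasome genes and 2 DNA replication genes rose, and without a filter 5 proteasome genes rose. At an adjusted p of 0.10 11 Wnt genes and 5 Hox genes rose. With 2 libraries a group, changes of genes with few reads are the least precise.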
